A study of Sus scrofa with 599 samples.

Results

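Retroperitoneal adipose (RAD), a visceral depot on the dorsal wall of the abdomen, was compared with the upper layer of backfat (ULB), a subcutaneous depot, in female Bama miniature pigs after weight loss (WL). The samples were chosen by their labels alone, and they were 20 of the 236 RNA-seq samples of the series and 20 of its 240 Hi-C samples, with 10 RAD and 10 ULB samples in each assay. The WL pigs were adults 2 years old at the start. They received a high-fat diet for 22 weeks and then 10% of the normal caloric intake for 12 weeks. They had been drawn at random from the high-fat pigs. Values from weight-gain (WG) pigs, which had the high-fat diet for 22 weeks and no restriction, and from normal-condition (NC) pigs on a normal diet were set beside them. The WG samples were 39 RAD and 38 ULB in RNA-seq and 40 and 39 in Hi-C, and the NC samples were 12 RAD and 5 ULB in each. All pigs were of 1 breed and 1 sex, and those of WG and NC were also 2 years old at the start. The WL pigs were thus 12 weeks older than the WG pigs at sampling. Differences between WL and WG carry this difference in age, which cannot be told apart from the restriction. By the study's methods each depot was taken from every carcass, so the 10 RAD and 10 ULB samples came from the same 10 WL pigs, but the labels do not state that a replicate number marks the pig. The depots were therefore compared without pairing, and with the replicate number as a block there were 809 called genes in place of the 597 given below. H3K27ac profiles of WL pigs were available as 1 merged profile per depot, from 4 immunoprecipitated and 3 input libraries in RAD and 2 of each in ULB.

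Fat depots arise from mesoderm of different origin, and adult adipose tissue keeps the expression of patterning factors of the place where it formed. Subcutaneous fat of the back carries factors of the dorsal body wall, such as ZIC and IRX homeobox and zinc finger proteins, whereas visceral fat carries factors of the lateral plate and intermediate mesoderm, such as WT1. Adipocytes of both kinds store triglyceride and release it on fasting, and they lie among progenitor cells, vessels and immune cells that make the extracellular matrix and its signals. In the nucleus, active chromatin (compartment A) and inactive chromatin (compartment B) fold apart from each other, and the acetylation H3K27ac marks active promoters and enhancers.

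The DNA before the starts of 4 genes is shown because expression, compartment or H3K27ac differed between the depots there. The sequences are from Sscrofa11.1 with starts of annotated genes in RefSeq, 5′ to 3′ along the gene, and capitals mark any of 4 motifs on either strand, which were TATAAA (the TATA box), then CCAAT (the box bound by NF-Y), then GGGCGG (the GC box) and lastly TAATTA (a homeobox core). ZIC4 on the minus strand and ZIC1 on the plus strand, a pair of zinc finger factors, start 44 bases apart at chr13:87740725-87740768, with no motif in between. The stretch itself lay in no H3K27ac region of either depot. Within 10 kb of ZIC1 the ULB profile had a region and the RAD profile had none. Within 10 kb of ZIC4 each profile had 1, covering 8000 bp in ULB and 800 bp in RAD. The 250 bases before IRX2, a homeobox factor, on the plus strand (chr16:78305619-78305868) lay inside an H3K27ac region of ULB and in none of RAD. The 250 bases before WT1, on the plus strand (chr2:28411217-28411466), lay inside a region of RAD and in none of ULB. The 250 bases before FGFR2, a receptor for fibroblast growth factors, on the minus strand (chr14:131285002-131285251), belong to a 20-kb bin that was in compartment A in 9 ULB samples and 1 RAD sample. They lay in no H3K27ac region of either depot.
ZIC4 to ZIC1: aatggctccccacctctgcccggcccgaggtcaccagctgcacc
IRX2: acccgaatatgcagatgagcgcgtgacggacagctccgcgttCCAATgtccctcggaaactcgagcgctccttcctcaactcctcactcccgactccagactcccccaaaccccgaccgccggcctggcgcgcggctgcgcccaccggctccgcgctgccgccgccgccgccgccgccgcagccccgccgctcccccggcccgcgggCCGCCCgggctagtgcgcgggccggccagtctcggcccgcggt
WT1: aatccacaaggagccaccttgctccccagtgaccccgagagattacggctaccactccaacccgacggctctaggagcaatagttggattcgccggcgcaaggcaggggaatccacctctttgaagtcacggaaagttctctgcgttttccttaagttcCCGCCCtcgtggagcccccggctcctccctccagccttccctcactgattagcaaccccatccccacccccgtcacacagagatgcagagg
FGFR2: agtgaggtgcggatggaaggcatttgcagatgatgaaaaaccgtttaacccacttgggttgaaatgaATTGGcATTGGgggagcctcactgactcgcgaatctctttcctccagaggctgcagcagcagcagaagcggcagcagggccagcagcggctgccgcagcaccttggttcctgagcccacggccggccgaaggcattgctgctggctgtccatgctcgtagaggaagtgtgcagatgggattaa
Among the 13566 windows of 250 bases before genes with a known place, 31.8% held the CCAAT box, 53.1% the GC box, 7.98% the TATA box and 3.26% the homeobox core, so that the matches before IRX2, WT1 and FGFR2 are common ones.

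Estimated counts on protein-coding genes (PCGs) ranged from 12721994 to 20357269 in the 10 RAD libraries (median 16026492) and from 10858441 to 21677739 in the 10 ULB libraries (median 15630919). The share of TPM (a measure of transcript abundance scaled to the same total in each library) that fell on PCGs ranged from 76.2% to 94.1% in RAD and from 78.6% to 94.5% in ULB, and 3 libraries of each depot were below 90%. Fat cell genes were high in all 20 libraries. ADIPOQ (adiponectin) was at 2208 to 6005 TPM in RAD and 1992 to 6627 TPM in ULB. FABP4, the fatty acid binding protein of adipocytes, was at 9373 to 24280 and 10160 to 22210 TPM. In ULB, replicate 1 stood apart for several genes that were near 0 in the other 9 ULB libraries, and its values are given beside those genes.

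Expression differed between RAD and ULB in 597 of 13750 PCGs tested (4.34%), at an adjusted p below 0.05 (edgeR quasi-likelihood test, Benjamini-Hochberg) and a fold change above 1.5. Of these differentially expressed genes (DEGs), 282 were higher in RAD (2.05%) and 315 higher in ULB (2.29%). The adjusted p alone was reached by 746 (5.43%). The TPM ranges did not overlap between the depots in 90 of the tested PCGs (0.655%), 36 with RAD higher (0.262%) and 54 with ULB higher (0.393%). The log2 fold changes below are ULB over RAD, and their median over all tested PCGs was -0.0022. The same test called 841 to 2252 genes between the other 5 pairs of depots in the WL pigs, some of which share samples with this comparison. In whole tissue, fewer cells of a type and less RNA per cell cannot be told apart.

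**Figure D1:**
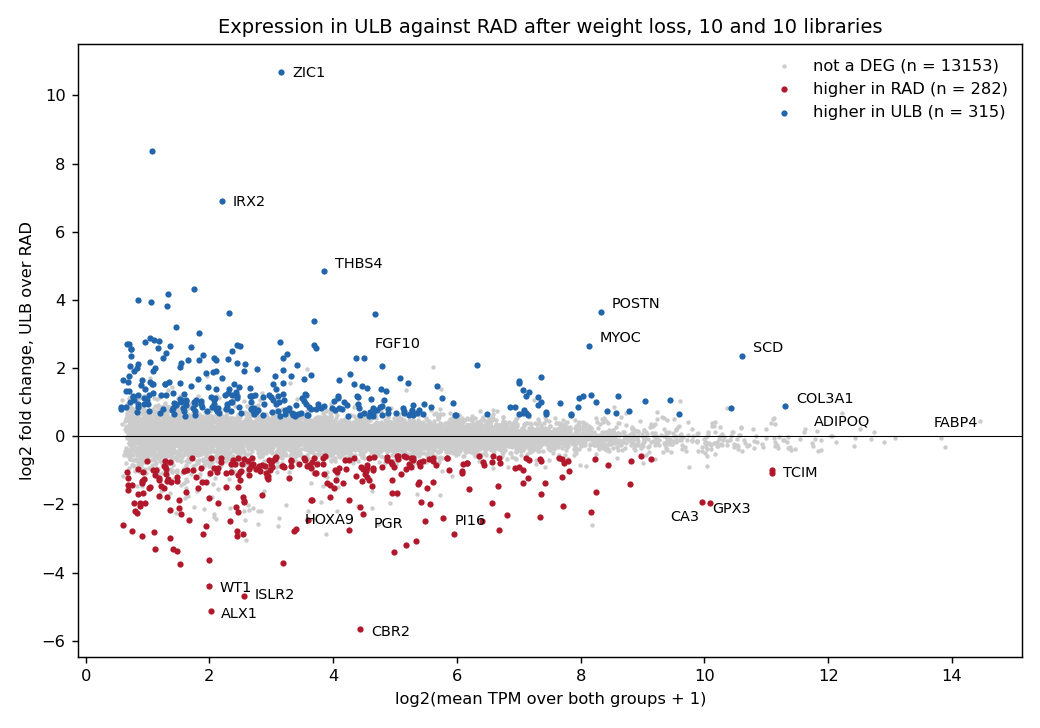
Log2 fold change of ULB over RAD (y axis) against log2 of the mean TPM of both depots plus 1 (x axis) for the 13750 PCGs tested in WL pigs, with the 282 DEGs higher in RAD and the 315 higher in ULB coloured. ZIC1 and IRX2 lie at the top and CBR2 and ALX1 at the bottom, and the fitted value of ZIC1 depends on the prior count, since all RAD libraries are at 0.

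Some of the largest differences toward ULB were in factors that pattern the dorsal body wall. ZIC1 was listed at 0 in all 10 RAD libraries and at 5.75 to 37.5 TPM (median 13.9) in ULB, so it was at least 693.9-fold higher in ULB when RAD is set to the floor of 3 counts over the whole group. ZIC4, its neighbour, was above 0 in RAD replicate 3 alone, at 0.0310 TPM, and ranged from 0.302 to 6.75 TPM (median 1.57) in ULB, with a log2 fold change of 8.37 ± 0.75 (SE, n = 10 and 10) and an adjusted p of 1.16e-07 by edgeR (9.21 without that library). IRX2 ranged from 0 to 0.178 TPM (median 0.0180) in RAD and from 3.83 to 12.2 TPM (median 7.06) in ULB, a 120.1-fold difference (log2 fold change 6.91 ± 0.43, edgeR adjusted p 4.41e-10). For all 3 of these genes every ULB library was above every RAD library.

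Of 17 tested dorsal and subcutaneous patterning factors, 9 were higher in ULB and 4 higher in RAD, with a median log2 fold change of 0.66. ZIC1 is at the top of the list, so setting it to its bound cannot move this median. The others higher in ULB were IRX1 at 2.29, IRX5 at 1.92, EN1 at 1.69, SHOX2 at 0.94, PRRX1 at 0.93 and PRRX2 at 0.66. IRX1 was at 3.68 without the 6 libraries below 90% of TPM on PCGs. PRRX2 lost its call on leaving out any of 14 of the 20 single libraries. The 4 higher in RAD were ALX1 (-5.13), TBX18 (-1.38), DMRT2 (-0.82) and EBF2 (-0.66), so that the list did not move as a whole. EBF2, a factor of brown and beige adipocyte precursors, ranged from 31.8 to 48.8 TPM (median 37.0) in RAD and from 17.6 to 31.7 TPM (median 25.3) in ULB, with no overlap between the depots (edgeR adjusted p 1.62e-05).

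WT1 and ALX1 were among the genes with the largest differences toward RAD. WT1, a zinc finger factor of the intermediate mesoderm and mesothelium, ranged from 3.51 to 9.5 TPM (median 5.24) in RAD and from 0 to 1.71 TPM (median 0.0144) in ULB, with a log2 fold change of -4.40 ± 0.61 (edgeR adjusted p 4.34e-05). ALX1, an aristaless-like homeobox factor, ranged from 2.76 to 9.12 TPM (median 5.99) in RAD and from 0 to 1.51 TPM (median 0) in ULB, with a log2 fold change of -5.13 ± 0.69 (edgeR adjusted p 2.74e-05). The highest ULB value of both genes was that of replicate 1, and the next highest was 0.420 TPM for WT1 and 0.0870 TPM for ALX1. Without that library, the log2 fold change was -5.68 for WT1 (edgeR adjusted p 1.42e-07) and -8.46 for ALX1 (6.64e-11).

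Of 9 tested visceral lineage factors, 4 were higher in RAD (WT1, GATA6, HAND2 and FOXF1), none was higher in ULB and 5 were not called, with a list median of -0.21. HAND2, a basic helix-loop-helix factor of the lateral plate, ranged from 0.415 to 3.90 TPM (median 1.52) in RAD and from 0 to 0.627 TPM (median 0.186) in ULB, with a log2 fold change of -2.93 ± 0.50 (edgeR adjusted p 0.000495), or -3.58 without the 6 libraries below 90% of TPM on PCGs. GATA6, a zinc finger factor of the mesoderm and endoderm, ranged from 4.46 to 12.9 TPM in RAD and from 2.27 to 5.70 TPM in ULB (-0.96 ± 0.19). FOXF1, a forkhead factor of the splanchnic mesoderm, ranged from 1.53 to 3.21 and from 0.507 to 1.91 TPM (-0.77 ± 0.20), and its call was lost without those libraries. The ranges of HAND2, GATA6 and FOXF1 overlapped between the depots.

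HOX genes, which set position along the body axis, differed in both directions: of 21 tested, 4 were higher in RAD (HOXA9, HOXA10, HOXB6 and HOXB7) and 4 in ULB (HOXC4, HOXC5, HOXD9 and HOXD10), with a list median of -0.19. HOXA9 ranged from 10.7 to 22.1 TPM (median 15.1) in RAD and from 0.830 to 5.09 TPM (median 2.18) in ULB, with no overlap and a log2 fold change of -2.79 ± 0.28 (edgeR adjusted p 5.09e-07). HOXA10 ranged from 2.39 to 9.34 TPM (median 5.33) in RAD and from 0 to 2.71 TPM (median 0.141) in ULB (-3.63 ± 0.57), and the log2 fold change was -4.27 without ULB replicate 6 and -2.97 without the 6 libraries below 90%. HOXD10 was low in both depots, at 0 to 0.338 TPM (median 0.182) in RAD and 0.184 to 2.29 TPM (median 1.07) in ULB (2.56 ± 0.44). The genes higher in RAD thus came from the A and B clusters and those higher in ULB from the C and D clusters.

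**Figure D2:**
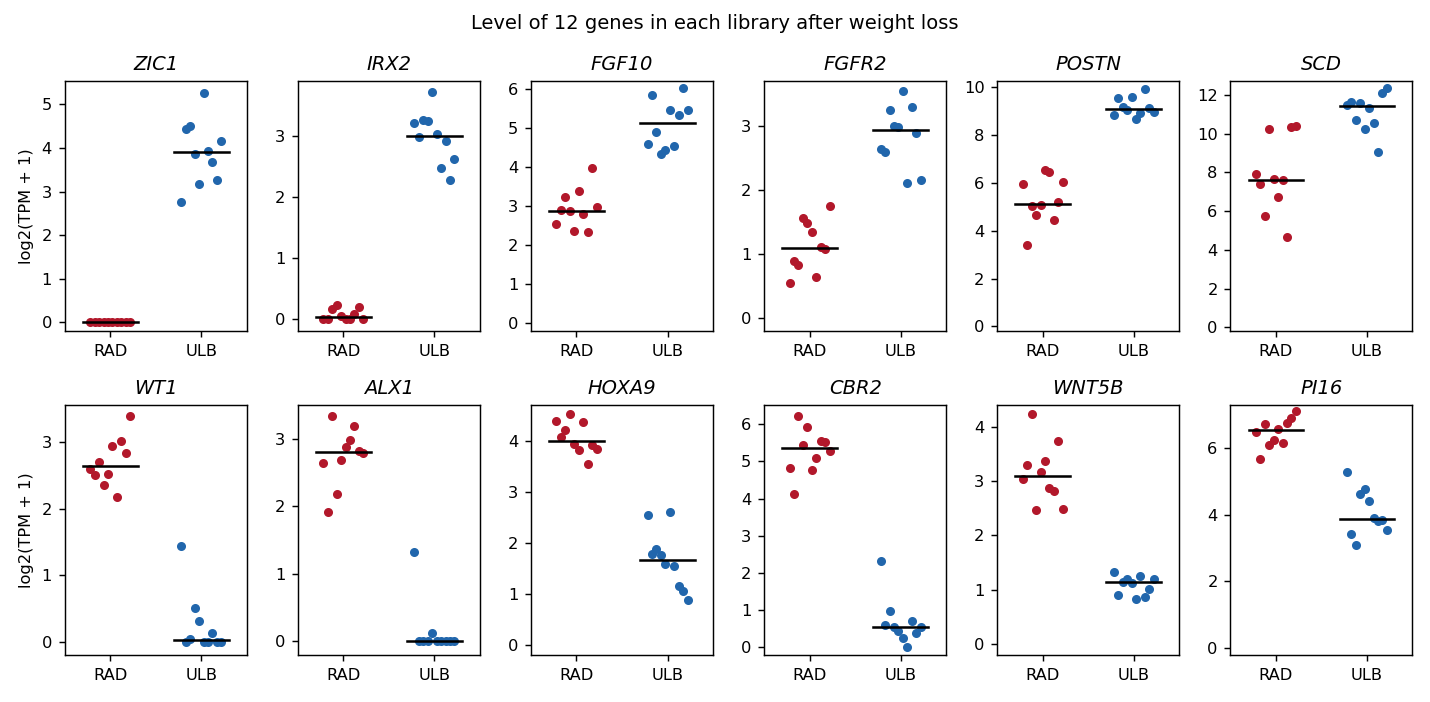
Expression of selected genes in each WL library (log2 of TPM plus 1), 10 RAD and 10 ULB points a gene, with bars at the group medians. ZIC1 and IRX2 separate toward ULB and WT1, ALX1 and HOXA9 toward RAD, and ULB replicate 1 lies above the other ULB libraries for WT1 and ALX1.

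Genes outside these lists were higher in RAD as well. CBR2, a carbonyl reductase, ranged from 16.5 to 73.0 TPM (median 39.8) in RAD and from 0 to 4.01 TPM (median 0.47) in ULB, with a log2 fold change of -5.66 ± 0.48 (edgeR adjusted p 5.89e-08). The highest ULB value was again that of replicate 1, with the next at 0.987 TPM, and the log2 fold change without it was -6.48. ISLR2, a membrane protein with leucine-rich repeats, ranged from 4.63 to 17.9 TPM in RAD and from 0.0430 to 1.67 TPM in ULB (-4.68 ± 0.47), and its second highest ULB library was at 0.475 TPM after replicate 1, without which the log2 fold change was -5.42. ITIH1 and ITIH3, adjacent genes for the heavy chains that bind hyaluronan, were at medians of 52.5 and 156.2 TPM in RAD and 5.07 and 23.1 TPM in ULB, with log2 fold changes of -3.20 ± 0.43 and -2.74 ± 0.36 and overlapping ranges. DDC, the decarboxylase that makes dopamine and serotonin, ranged from 0.910 to 45.1 TPM in RAD and from 0.498 to 3.54 TPM in ULB, with overlap (-3.73 ± 0.64). PGR, the progesterone receptor, ranged from 20.5 to 45 TPM in RAD and from 3.70 to 11.2 TPM in ULB (-2.28 ± 0.19), with no overlap.

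Of 8 tested WNT ligands, secreted glycoproteins of which several hold back adipocyte formation, 5 were higher in RAD and none in ULB. Of 7 tested secreted inhibitors, 2 were higher in ULB, 1 was higher in RAD and 4 were not called. With the R-spondins, 17 genes of the list were tested, of which 6 were higher in RAD (WNT2B, WNT5A, WNT5B, WNT6, WNT16 and DKK3) and 3 in ULB (SFRP1, SFRP4 and RSPO3), with a list median of -0.60. WNT5B ranged from 4.49 to 17.8 TPM (median 7.57) in RAD and from 0.765 to 1.51 TPM (median 1.2) in ULB, with a log2 fold change of -2.88 ± 0.24 (edgeR adjusted p 4.78e-08). WNT16 ranged from 3.79 to 14.5 TPM (median 6.01) in RAD and from 0.604 to 2.07 TPM (median 1.19) in ULB (-2.50 ± 0.23). WNT6 was highest in RAD replicate 3, at 34.6 TPM against 12.7 TPM in the next library, with a log2 fold change of -2.77 ± 0.62, or -2.11 without that library. In contrast, SFRP4, a frizzled-related protein that binds WNT ligands, ranged from 16.7 to 46.5 TPM (median 23.9) in RAD and from 81.7 to 196.1 TPM (median 109.9) in ULB (2.10 ± 0.23). The ranges of WNT5B, WNT16 and SFRP4 did not overlap between the depots. DKK3, named for its likeness to WNT inhibitors, was the inhibitor higher in RAD, and RSPO3 amplifies WNT signals.

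BMP7, a ligand that promotes brown adipocyte formation, ranged from 1.4 to 6.73 TPM (median 3.27) in RAD and from 0.0619 to 0.658 TPM (median 0.177) in ULB, with a log2 fold change of -3.74 ± 0.37 (edgeR adjusted p 4.92e-07). GREM1, a secreted BMP antagonist, was higher in RAD as well, at 2.20 to 16.9 TPM (median 6.60) against 0.135 to 1.78 TPM (median 1.05), with a log2 fold change of -2.94 ± 0.36. FGF10, a growth factor needed for adipose progenitors, ranged from 4.04 to 14.8 TPM (median 6.43) in RAD and from 19.3 to 64.2 TPM (median 34.3) in ULB (2.28 ± 0.24, edgeR adjusted p 9.99e-07). FGFR2, whose epithelial form is the main receptor for FGF10, ranged from 0.459 to 2.39 TPM (median 1.15) in RAD and from 3.33 to 10.7 TPM (median 6.70) in ULB, with a log2 fold change of 2.26 ± 0.29 (edgeR adjusted p 1.93e-05). It was chosen after its values were seen. The ranges of FGF10 and of FGFR2 did not overlap between the depots. BMP4 (0.21, edgeR adjusted p 0.75) and FGF9 (-0.19, edgeR adjusted p 0.711) were not called.

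Of 38 tested extracellular matrix genes, 12 were higher in ULB, 1, FBN1 (fibrillin, -0.86), was higher in RAD and 25 were not called, with a list median of 0.43. POSTN (periostin), a matrix protein of connective tissue under load, ranged from 9.47 to 90.5 TPM (median 33.9) in RAD and from 401.1 to 967.7 TPM (median 539.2) in ULB, a 12.6-fold difference (3.66 ± 0.34, edgeR adjusted p 1.76e-07). COL12A1, a collagen that sits on fibril surfaces, ranged from 29.2 to 93.0 TPM in RAD and from 128.2 to 282.6 TPM in ULB (1.63 ± 0.18). THBS2, a thrombospondin, ranged from 87.3 to 384.2 TPM and from 245.4 to 653.8 TPM (1.22 ± 0.23). The fibrillar collagens COL1A1 (1.3 ± 0.37), COL1A2 (1.05 ± 0.27) and COL3A1 (0.88 ± 0.26) passed the test as well, but their ranges overlapped. The calls of all 3 were lost without the 6 libraries below 90% of TPM on PCGs. With all libraries the edgeR adjusted p was 0.0381 for COL1A1 and 0.0462 for COL3A1. Single libraries left out ended the call of COL1A1 in 12 of 20 cases (all but RAD replicates 4, 9 and 10 and ULB replicates 1, 2, 5, 7 and 8) and that of COL3A1 in 16 (all but RAD replicates 4, 9 and 10 and ULB replicate 1). Outside the list, THBS4, another thrombospondin, ranged from 0.306 to 2.28 TPM (median 0.586) in RAD and from 8.46 to 55.8 TPM (median 24) in ULB (4.84 ± 0.36). MYOC (myocilin) ranged from 30.6 to 120.5 and from 160.1 to 857.3 TPM (2.65 ± 0.30). KERA (keratocan), a proteoglycan of collagen-rich tissue, was at medians of 2.07 and 16.7 TPM (2.68 ± 0.44).

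Genes that define fat cells differed little. Of 17 tested adipocyte identity genes, 1 was higher in RAD and none in ULB, with a list median of -0.02, and ADIPOQ and FABP4 had log2 fold changes of 0.00 ± 0.23 and -0.05 ± 0.20. Of 23 lipogenic genes, 2 were higher in ULB and none in RAD (list median 0.23). SCD, the desaturase that makes oleate, ranged from 24.5 to 1358 TPM (median 196.9) in RAD and from 530.9 to 5188 TPM (median 2727) in ULB (2.36 ± 0.63, edgeR adjusted p 0.0249). PNPLA3, a lipid droplet protein induced by feeding, was at medians of 15.6 and 44.4 TPM (1.69 ± 0.48, adjusted p 0.0365). The SCD values in both depots spread widely and overlapped. The calls of both genes were lost without the 6 libraries below 90% of TPM on PCGs, and that of PNPLA3 was also lost on leaving out any of RAD replicates 1, 3, 5 and 7 and ULB replicates 3, 4 and 6.

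Of 15 tested genes of lipolysis and its receptors, 3 were higher in RAD and none in ULB (list median -0.06). These were PLIN5, a lipid droplet coat protein, at 19.1 to 51.1 TPM in RAD and 10.2 to 24.1 TPM in ULB (-0.98 ± 0.17), NPR3, the clearance receptor for natriuretic peptides (-1.37 ± 0.28), and PTGER3, a prostaglandin E receptor that inhibits lipolysis (-1.29 ± 0.30). NPR3 lost its call without the 6 libraries below 90% of TPM on PCGs. Of 19 adipokines and secreted regulators, 4 were higher in RAD and 2 in ULB. RBP4, the retinol carrier of the blood, ranged from 26.8 to 124.0 TPM (median 49.2) in RAD and from 5.76 to 39.1 TPM (median 20.8) in ULB (-1.52 ± 0.34). In the list of fatty acid oxidation and thermogenic genes, EBF2 and TMEM26 were higher in RAD and PPARGC1A, a coactivator of mitochondrial genes, in ULB, of 23 tested (list median -0.08). PPARGC1A lost its call without those 6 libraries. None of 63 nuclear-encoded respiratory chain genes (list median -0.07) and none of 12 mitochondria-encoded genes (0.39) passed the test.

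Genes of adipose progenitors differed in both directions, with 5 of 19 higher in RAD and 2 in ULB (list median -0.18). PI16, a marker of interstitial progenitors around vessels and fascia, ranged from 49.7 to 134.8 TPM (median 90.6) in RAD and from 7.45 to 37.9 TPM (median 13.6) in ULB (-2.40 ± 0.25, edgeR adjusted p 7.5e-07). ALDH1A3, an enzyme that makes retinoic acid, ranged from 74.5 to 167.0 TPM (median 102.6) in RAD and from 31.5 to 50.2 TPM (median 36) in ULB (-1.55 ± 0.13), and ALDH1A2, which makes the same product, was higher in RAD as well (-0.94 ± 0.22). SEMA3E, a semaphorin, ranged from 2.27 to 12.4 TPM in RAD and from 9.70 to 21.8 TPM in ULB (1.13 ± 0.20). CRABP2, which carries retinoic acid to the nucleus, was at medians of 2.38 and 21.7 TPM (2.58 ± 0.52). ALDH1A1, which also makes retinoic acid, was at means of 272.2 and 234.1 TPM and was not called (-0.23, edgeR adjusted p 0.709). The call of ALDH1A2 was lost without the 6 libraries below 90%.

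The DEGs with the highest mean TPM included TCIM, a small regulator of WNT signals, at medians of 2727 TPM in RAD and 1448 TPM in ULB (-0.98 ± 0.16), and GSN (gelsolin), an actin severing protein, at 946.9 and 1928 TPM (0.83 ± 0.14). GPX3, the secreted glutathione peroxidase, ranged from 555.1 to 3852 TPM (median 1374) in RAD and from 98.8 to 920.0 TPM (median 301.3) in ULB (-1.94 ± 0.37, edgeR adjusted p 0.00164). CA3, a carbonic anhydrase of adipocytes and muscle, was at medians of 1294 and 265.6 TPM (-1.95 ± 0.51), a call lost without RAD replicate 3. The ranges of these 4 genes overlapped between the depots.

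Markers of other cells moved little. Among 22 macrophage markers 1 was higher in ULB (CD9, 0.74 ± 0.18), and no gene was called among 14 lymphocyte, 16 antigen presentation and interferon, 15 endothelial, 13 immediate early, 14 circadian clock and 11 proliferation genes. Of 22 chemokines and cytokines 4 were higher in ULB (TGFB2, CXCL12, CXCL14 and CCL8), and of 10 complement genes CFI was higher in RAD. RGS5, a pericyte marker, was higher in ULB (1.56 ± 0.33), and SYNPO2 (-1.23 ± 0.17) and TAGLN (-0.72 ± 0.19), of smooth muscle, were higher in RAD. CD9, CFI and RGS5 lost their calls without the 6 libraries below 90% of TPM on PCGs, and CCL8 (adjusted p 0.0497) on leaving out any of 14 of the 20 single libraries. Of 11 steroid receptors and glucocorticoid targets, 1, PGR, was higher in RAD. Of 5 blood cell markers, HBB (haemoglobin beta) was higher in RAD, at 1217 to 5968 TPM against 485.4 to 2779 TPM (-1.08 ± 0.28), and the summed TPM of the list ranged from 1234 to 6084 in RAD and from 493.8 to 2834 in ULB. The call of HBB was lost without RAD replicate 2 or 5 and without the 6 libraries. The part of blood in the genes higher in RAD was not tested.

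Among markers of tissue next to the depots, those of skeletal muscle and skin were low, and those of the mesothelium varied widely between libraries. Of 16 mesothelial markers 10 had a symbol in the table and 5 passed the level filter, of which WT1 was higher in RAD and DES (desmin) in ULB. The list median was 0.65, and 4 of the 5 leaned toward ULB, so WT1 did not stand for the list. The summed TPM of the list ranged from 10.0 to 118.2 in RAD and from 10.8 to 267.1 in ULB. None of 3 tested skeletal muscle, 1 skin and 2 adrenal and kidney genes passed the test, with summed TPM of the lists of 2.58 to 8.69, 1.42 to 4.42 and 28 to 46.5 in RAD and 2.58 to 16.1, 1.86 to 3.99 and 28.3 to 48.0 in ULB. The adrenal and kidney list held STAR, at means of 35.5 TPM in RAD and 37.6 TPM in ULB. RAD replicate 2 held the highest RAD value of DES (38.3 TPM, the next 4.90), and without it the log2 fold change was 3.22 (2.29 with it). The call of DES was lost without the 6 libraries below 90%.

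**Figure D3:**
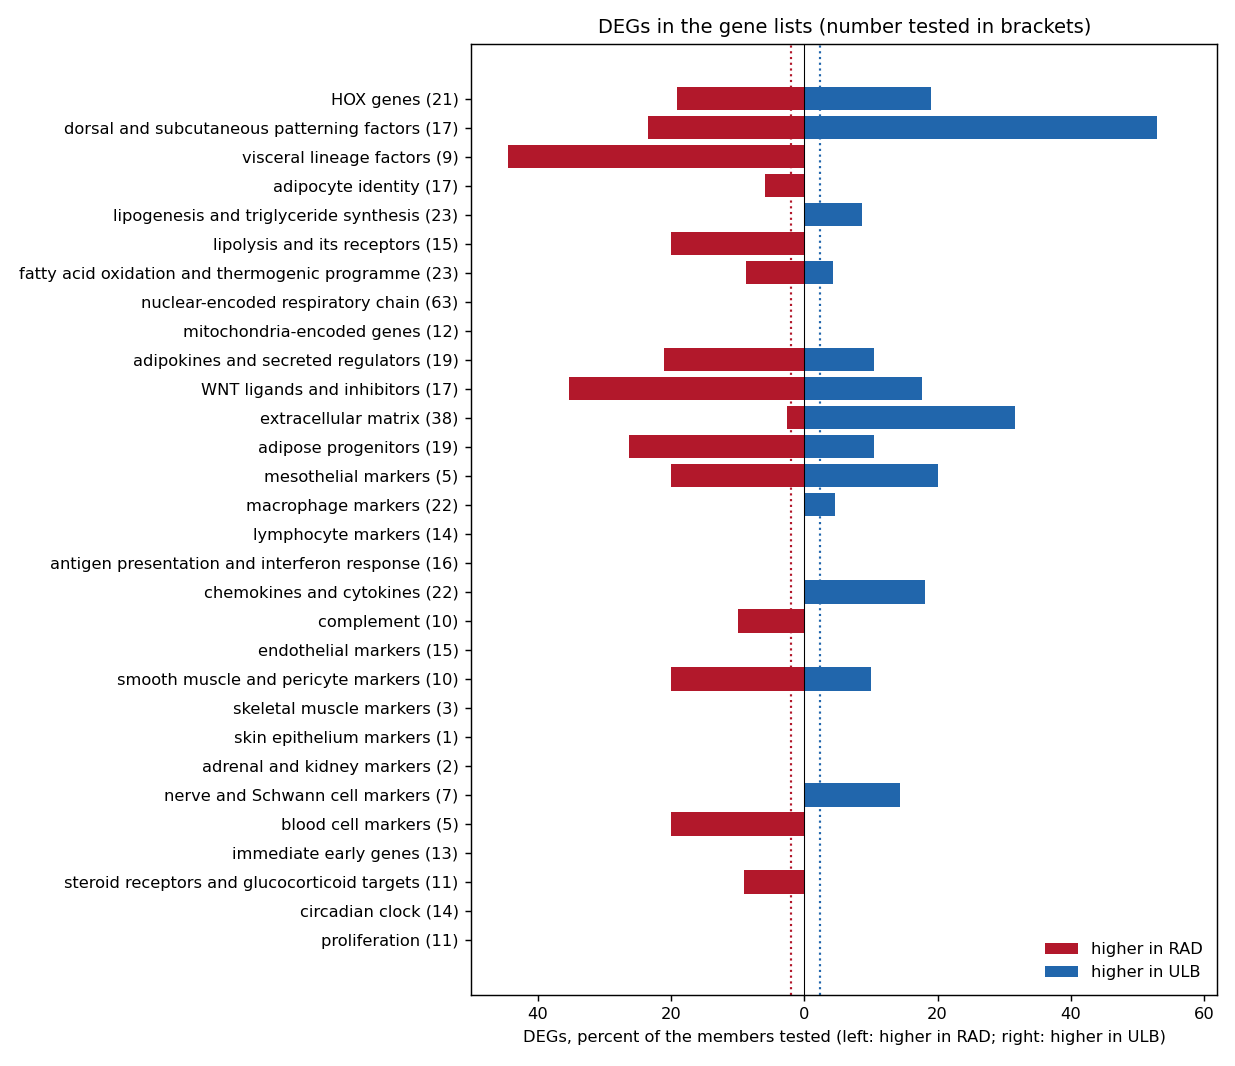
Percent of the tested members of each gene list that were DEGs higher in RAD (to the left) and higher in ULB (to the right) in WL pigs, with the number tested in brackets and dotted lines at the percent of all tested PCGs (2.05% and 2.29%). Extracellular matrix (12 in ULB, 1 in RAD) and dorsal patterning factors (9 and 4) lean to ULB, WNT genes (6 in RAD, 3 in ULB) and visceral lineage factors (4 and none) to RAD, and no respiratory chain gene was called.

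The A-B index, whose sign gives the compartment of a 20-kb bin (A above 0) and whose size gives how far it leans, was compared over 113298 bins of 18 autosomes with limma. An adjusted p below 0.05 was reached in 12144 bins (10.7%). A/B variable bins, which also had a difference above 0.75 and the same compartment in more than 80% of the samples of each depot, numbered 4689 (4.14%), 3347 of them higher in RAD (71.4%) and 1342 higher in ULB. This split depended on the scale of the samples: after quantile normalization 1911 variable bins were higher in RAD (44.9%) and 2349 in ULB. The median index difference over all bins (ULB minus RAD) then moved from -0.106 to 0.00613. An A/B switch, with more than 80% of samples in A in one depot and more than 80% in B in the other, was found in 59 bins (0.0521%), 42 of them A in RAD. Leaving out any single sample gave more switches, 63 to 98. A share of samples in A of 70% or more in one depot and 30% or less in the other was found in 1555 bins (1.37%). Leaving out any single sample gave fewer, 750 to 1344 bins. Both classes are set by shares, so leaving out a sample also changes how many samples must meet them. These shifts therefore cannot be laid to particular samples. Without ULB replicate 4, 7628 bins reached the adjusted p. The share of bins in A ranged from 49.8% to 50.7% in RAD and from 47.9% to 50.8% in ULB.

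Chromosome 10 stood apart in the Hi-C samples. Across its bins, the samples' Pearson correlation with the per-bin median of all 20 samples ranged from 0.669 to 0.985. Of these, 8 of 20 samples (RAD replicates 1 and 7 and ULB replicates 1, 2, 4, 5, 6 and 7) were below 0.9. The lowest correlation on the other 17 autosomes was 0.962. This chromosome held 551 of the 4689 variable bins and 493 of the 1555 frequency changes. A fit without it gave 4157 variable bins (3109 higher in RAD), 58 switches and 1062 frequency changes. Among the 12 genes with the largest index differences at their start, 11 were on chromosome 10, and they are not described further.

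Of 73 named DEGs with a bin outside chromosome 10, the index passed the test at 14, at 13 of them toward the depot with the higher expression. Over all 10441 tested genes with a bin, chromosome 10 included, it passed at 957 toward RAD and 182 toward ULB. ZIC1 and ZIC4 share a bin and were counted apart, and ALX1 was named in part for its index difference. At the bin of FGF10, the index ranged from -2.82 to -1.51 (median -1.85) in RAD and from -1.89 to -0.321 (median -0.870) in ULB, a difference of 1.02 ± 0.22 (SE, limma adjusted p 0.00673), so that both depots were in B and ULB less so. The bin that holds the starts of ZIC1 and ZIC4 ranged from -2.55 to -0.946 in RAD and from -2.06 to 1.05 in ULB (0.92 ± 0.28, limma adjusted p 0.0387). Only ULB replicate 10 was in A, and the call was lost on leaving out RAD replicate 1, 2, 4, 6, 9 or 10 or ULB replicate 2, 3, 4, 7 or 8. The bin of FGFR2 was an A/B switch, at -1.63 to 0.344 (median -0.235) in RAD and -0.727 to 0.896 (median 0.420) in ULB (0.77 ± 0.21, limma adjusted p 0.0247). The bin of IRX2 was in B in all 20 samples, with a difference of 0.57 ± 0.19 that missed the threshold (limma adjusted p 0.0585), while after quantile normalization it was 0.68 (adjusted p 0.0244).

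Toward RAD, the bin of WT1 ranged from -0.464 to 1.17 (median 0.0935) in RAD and from -1.87 to -0.0657 (median -1.2) in ULB, with a difference of -1.22 ± 0.23 (limma adjusted p 0.00334). It was in A in 5 of 10 RAD samples and in 0 of 10 ULB samples. The bin of ALX1 lay deep in B in both depots, at -5.18 to -2.88 in RAD and -6.91 to -3.71 in ULB (-1.66 ± 0.33, adjusted p 0.00495). The bin of HOXA10 was in A in all samples, at 2.34 to 3.08 in RAD and 1.48 to 2.32 in ULB, without overlap (-0.77 ± 0.15, adjusted p 0.00348). HOXA9 (-0.63 ± 0.17), HAND2 (-0.79 ± 0.22), EBF2 (-0.61 ± 0.15), ALDH1A3 (-0.82 ± 0.21) and GATA6 (-0.76 ± 0.22) had a higher index in RAD as well, GATA6 not without ULB replicate 2 or 4. The bin of GSN went against its expression, with an index higher in RAD (-1.34 ± 0.40, adjusted p 0.0345) in a call that was lost on leaving out RAD replicate 1, 4, 6 or 9 or ULB replicate 2, 3, 4, 6, 7 or 8. The bin of FABP4, whose expression did not pass the test, was higher in ULB, at 2.65 to 4.32 against 1.45 to 3.38 (1.07 ± 0.26, adjusted p 0.0125).

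**Figure D4:**
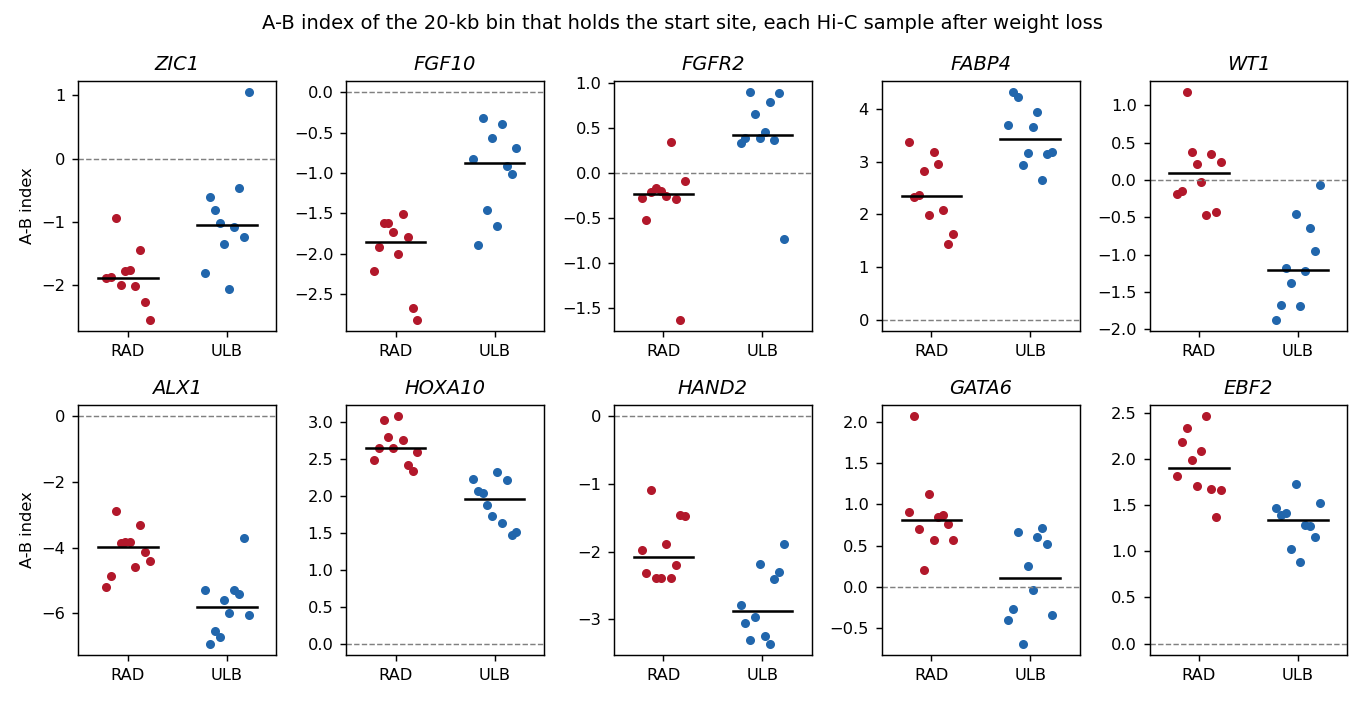
A-B index of the 20-kb bin at the start of selected genes in each WL sample (y axis, no unit, 0 divides B below from A above), 10 RAD and 10 ULB points a gene with bars at the medians. WT1 lies around 0 in RAD and below 0 in ULB, FGFR2 crosses 0 in the other direction, and FGF10 and ALX1 stay below 0 in both depots.

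Over all tested genes with a bin, 231 of 10441 were DEGs higher in RAD (2.21%) and 250 were DEGs higher in ULB (2.39%). Among the 182 genes whose bin had a higher index in ULB, 16 were higher in ULB (8.79%) and 0 in RAD. Among the 957 genes whose bin had a higher index in RAD, 49 were higher in RAD (5.12%) and 13 in ULB (1.36%). After quantile normalization the counts were 28 and 4 of 331 genes, and 40 and 10 of 790 genes. Most of these genes were thus not DEGs, and the median log2 fold change was 0.05 in the 182 genes and -0.06 in the 957 genes. Across genes, which are not independent replicates, Pearson's r between fold change and index difference was 0.109 over the 10441 genes and 0.339 over the 481 DEGs, given as a description. Besides FGFR2, the tested genes in switch bins were PAPPA and DENND5B, both A in RAD, neither a DEG, and both named after their values were seen.

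The merged H3K27ac profiles held 21825 regions in RAD, 1346 of them super-enhancers, and 25311 regions in ULB, 1652 of them super-enhancers, as the authors called them. A profile pools replicates, so these values have no spread and were not tested. Of 37 named DEGs higher in ULB, 8 had regions within 10 kb in ULB alone and 1 in RAD alone, and of 39 named DEGs higher in RAD, 4 had them in RAD alone and 3 in ULB alone. FGF10 had 3 regions in ULB and 0 in RAD, IRX2 and ZIC1 1 and 0, PGR 0 and 3, ALX1 0 and 1. ZIC4, next to ZIC1, had 1 in each depot, covering 8000 bp in ULB and 800 bp in RAD. Against their expression, GPX3 and DDC had 2 regions in ULB and 0 in RAD, CA3 1 and 0, and CD9 0 and 2. WT1 had 4 regions covering 32533 bp in RAD and 1 covering 10400 bp in ULB. POSTN had 2 regions in each depot, which covered 22000 bp in ULB and 4800 bp in RAD. HOXA9 and HOXA10 lay near a super-enhancer in RAD and not in ULB, as did ITIH1, ITIH3 and SYNPO2. HOXA9 and HOXA10 are neighbours with overlapping flanks, as are ITIH1 and ITIH3, so these are not separate observations. HOXD10, CA12, IGFBP5, CCL8, COL1A2 and COL3A1 lay near one in ULB and not in RAD. EBF2, higher in RAD, lay near one in ULB alone, and CD9, higher in ULB, near one in RAD alone. Of 261 DEGs higher in ULB, 31 (11.9%) had regions in ULB alone, against 5.1% of all 10809 tested genes with a place. Of 236 DEGs higher in RAD, 10 (4.24%) had regions in RAD alone, against 2.68%, and 13 (5.51%) had regions in ULB alone, against 5.1%.

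Restricted feeding followed weight gain, and the RAD and ULB difference was therefore set beside that in WG and NC pigs. The same test called 1237 of 13346 genes in WG (9.27%), with RAD higher in 4.07% and ULB higher in 5.2%. It called 594 of 13749 in NC (4.32%), with RAD higher in 1.4% and ULB higher in 2.92%. There were more libraries in WG and fewer in the NC group of ULB. Of the 597 WL DEGs, 404 were called in the same direction in WG, which is 67.7% of the WL DEGs and 32.7% of the WG DEGs, and 2 in the opposite direction. In NC, 216 were called in the same direction, 36.2% of the WL DEGs and 36.4% of the NC DEGs, and 1 in the opposite direction. IRX2 had log2 fold changes of 6.91 in WL, 5.69 in WG and 7.39 in NC, THBS4 of 4.84, 4.82 and 5.48, CBR2 of -5.66, -5.65 and -5.62, and ALDH1A3 of -1.55, -1.41 and -1.3, all called in all 3 states. GREM1 was called in WL (-2.94) but not in WG (-0.87) or NC (-2.60), and its difference between WL and WG missed the threshold (adjusted p 0.465).

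The difference between the depots itself differed between WL and WG in 28 of 13870 genes (0.202%, edgeR interaction term), 20 of them moved toward RAD in WL (0.144%) and 8 toward ULB (0.0577%). LIPG, the endothelial lipase, ranged in WL from 3.95 to 53.4 TPM (median 15.4) in RAD and from 1.09 to 7.45 TPM (median 3.17) in ULB. In WG it ranged from 1.55 to 33.8 TPM (median 4.79) in RAD and from 2.39 to 13.9 TPM (median 6.68) in ULB, with an interaction of -2.65 ± 0.43 (adjusted p 0.000136). ANGPT4, a ligand of the vascular receptor TIE2, had medians of 22.6 TPM in RAD and 7.68 TPM in ULB in WL, and of 4.43 and 5.97 TPM in WG (-1.92 ± 0.31). NDRG4 had medians of 69.1 and 13.2 TPM in WL and of 12.5 and 9.69 TPM in WG (-2.04 ± 0.35). In these 3 genes the WL RAD libraries had the highest median, although ranges overlapped, and ANGPT4 was not called in WL (log2 fold change -1.27 with all libraries) without the 6 libraries below 90%.

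ABCA1, which exports cholesterol, had medians of 106.8 and 62 TPM in WL and of 51.1 and 56.9 TPM in WG (-0.96 ± 0.19), and MYLIP, a ligase that degrades the LDL receptor, was called toward ULB in WG and not called in WL (-0.86 ± 0.16). Moved toward ULB in WL against WG was AQP3, a glycerol channel (1.21 ± 0.29), with medians of 140.6 and 294.1 TPM in WL and of 109.7 and 102.9 TPM in WG. AQP3 was also called higher in ULB in NC (log2 fold change 0.99, edgeR adjusted p 0.0379), beside 1.13 in WL and -0.08 in WG, so its ULB excess was not particular to WL. Its WL call was lost without the 6 libraries below 90%. TLN1 (talin, 0.64 ± 0.14), SEPTIN11 (0.67 ± 0.15) and GDF15, a stress cytokine (2.27 ± 0.54), moved the same way, but none of them was called between the depots in WL. Their WL log2 fold changes were 0.17, 0.53 and 0.83. In WG those of TLN1 and SEPTIN11 were -0.47 and -0.15, and GDF15 was too low in WG to be tested there alone. PGR was higher in RAD in both states, by less in WL (1.02 ± 0.24). ALX1 was called as well (2.72 ± 0.60), but without WL ULB replicate 1 its interaction was -0.60 with an adjusted p of 1, and PGR then had an adjusted p of 0.0701. LIPG, ANGPT4, NDRG4, MYLIP and ABCA1 passed in every alternative run, while TLN1, SEPTIN11, AQP3 and PGR did not without the libraries below 90% of TPM on PCGs. The total ranged from 13 to 48 genes, with 13 in the fit without libraries below 90% of TPM on PCGs and 21 without WL ULB replicate 1.

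**Figure D5:**
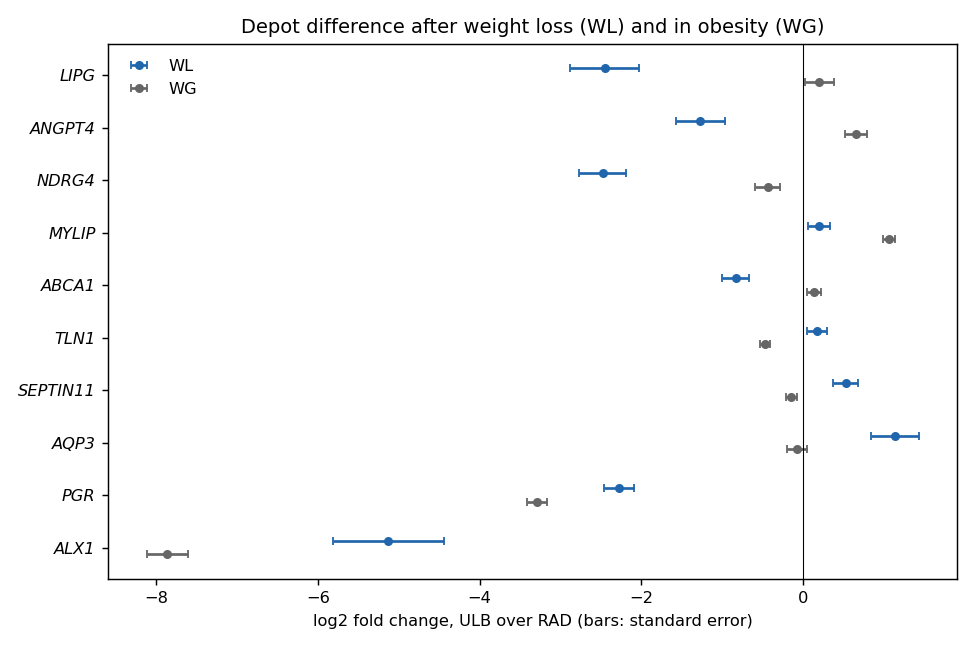
Log2 fold change of ULB over RAD in WG (grey) and in WL (blue) for genes whose depot difference differed between the states, with bars of 1 SE. LIPG, NDRG4 and ABCA1 lie near 0 in WG and below 0 in WL, ANGPT4 crosses from above to below 0, and AQP3 moves above 0.

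The A-B index shifted between states over the whole genome. The difference between the depots differed between WL and WG in 30146 bins (26.6%, limma interaction term), 25178 of them toward RAD in WL, with a median of -0.252 over all bins. After quantile normalization the median was -0.00169, and 5985 bins passed, 3288 of them toward RAD.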

How the data were processed

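Total RNA was depleted of ribosomal RNA and sequenced in stranded libraries, and in situ Hi-C and H3K27ac ChIP-seq were made from the same kinds of tissue. The authors estimated transcript abundance with kallisto against Sscrofa11.1 and summed it by gene with tximport, so the deposited estimated counts are not whole numbers (17.86% of the values used are 0 and 0% of the others whole within 1e-09), and they were rounded here. The deposited TPM values were used for levels. The authors computed the deposited A-B index, a score without a unit, from contact matrices balanced by the Knight-Ruiz method and normalized with BNBC, and the H3K27ac tables hold their ROSE signal of pooled libraries. Depth per bin is not given in the sources used here, so the precision of the index is the spread between samples, and it was compared with limma 3.58.1.

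PCGs whose TPM exceeded 0.5 in 80% or more of either group entered the test with edgeR 4.0.16 (TMM, quasi-likelihood, R 4.3.3), 10 against 10 libraries, with no block. The thresholds for DEGs were 0.05 for the adjusted p and 1.5 for the fold change. The difference between WL and WG was an interaction term over all 4 groups. Gene places and promoters were taken from the annotation of Sscrofa11.1, which gave a place for 13566 of 21280 PCGs. On simulated counts for 13750 genes of this comparison, 69% of genes changed by a factor of 2 and 100% of those changed by a factor of 3 were recovered. The simulation gave every gene the same dispersion and changed only genes with higher counts. Recovery of low or widely varying genes is therefore not shown by it. The tables hold 9 columns each of NC samples that match no label, which were not used. Values of 3 counts served as the floor.

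Named genes were the 12 largest DEGs in each direction at 5 TPM or more, the 5 most abundant DEGs in each direction, up to 4 DEGs of each of 30 gene lists, the 6 strongest interactions and the 6 largest index differences in each direction, and further called members of a list were named to complete its count. The members and lists were chosen with earlier results of these data known. Alternatives were DESeq2 1.42.0, other size factors, no filter, a block on the replicate number, the share of TPM on PCGs as a covariate, and each library left out. The replicate number is not stated to mark the pig: expression of samples with the same number correlated at -0.097 to 0.631 (median 0.314, against -0.0552 for other pairs), above 0.1 in 9 of 10 pairs and not in all, so the samples were not taken as paired although they share animals. Some items are not reported here.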

Additional observations from a re-analysis of the deposited data

Results flagged for a closer look

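In 33 of 200 checks of a gene's or bin's values in a group of 10, the highest or lowest sample stood apart from the rest. The gap, as a share of the group's range, was above Dixon's 95% critical value. That value assumes a normal distribution, whereas TPM was used without logs and the checks share libraries. Its rate of 1 in 20 therefore does not apply here, and all flags on TPM were for a highest library. In ULB, replicate 1 was the highest for WT1 (1.71 TPM), ALX1 (1.51), CBR2 (4.01), ISLR2 (1.67) and ALDH1A3 (50.2), 5 genes that were higher in RAD. Replicate 6 was the highest for ZIC1 (37.5 TPM), KERA (51.2) and TBX18 (14.9), replicate 8 for PTGER3 (46.4) and TCIM (2663), and replicate 9 for DES (118.2) and ANGPT4 (26.2). DDC was highest in replicate 5 (3.54 TPM) and PNPLA3 in replicate 3 (127.2 TPM).

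In RAD, replicate 3 was the highest for ZIC4 (0.0310 TPM), WNT6 (34.6), CA12 (2.69), PPARGC1A (2.32) and TCIM (4838), and replicate 2 for DES (38.3). WNT16 (14.5 TPM) and THBS2 (384.2) were highest in replicate 8. Single genes stood out in replicate 10 (HAND2, 3.90 TPM), replicate 1 (ITIH1, 173.0), replicate 9 (FGF10, 14.8), replicate 4 (CXCL14, 33.5) and replicate 5 (GDF15, 5.51).

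For the A-B index, the bin of FGFR2 was lowest in RAD replicate 9 (-1.63) and in ULB replicate 10 (-0.727), that of WT1 was highest in RAD replicate 3 (1.17), that of GATA6 in RAD replicate 2 (2.07), that of ZIC1 in ULB replicate 10 (1.05) and that of ALX1 in ULB replicate 9 (-3.71).

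The depot difference itself differed between WL and WG, by the edgeR interaction term, for LIPG (-2.65), ANGPT4 (-1.92), NDRG4 (-2.04), MYLIP (-0.86), ABCA1 (-0.96), TLN1 (0.64), ALX1 (2.72), SEPTIN11 (0.67), AQP3 (1.21), GDF15 (2.27) and PGR (1.02), on the log2 scale and negative toward RAD in WL.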

How the results depend on the processing

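With a fold change above 2, 329 genes were DEGs (153 higher in RAD and 176 in ULB), and with each library left out in turn there were 529 to 676. With the replicate number as a block there were 809 DEGs, 585 of them shared with the 597, and 5087 variable bins. In expression 6 of 10 RAD samples correlated best with the ULB sample of the same number, and the block ended no call of a named gene. Without the 6 libraries below 90% of TPM on PCGs there were 437 DEGs, 390 of them shared, and 16 of 80 named calls were lost. Testing without a filter on low genes ended those of COL3A1, CCL8 and PRRX2. DESeq2, other size factors and the covariate ended none of them, and no depot difference in expression of the 80 called named genes changed its direction.

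At an index difference above 0.5 there were 9294 variable bins (6850 higher in RAD and 2444 in ULB), and after quantile normalization 1911 were higher in RAD and 2349 in ULB. Leaving out each Hi-C sample gave 63 to 98 switches, 750 to 1344 frequency changes, 3441 to 5968 variable bins and 7628 to 15509 bins past the adjusted p. The classes of bins use shares of samples, so the number of samples they require changes with the size of the group. With classes at 80% and 20% there were 343 frequency changes. Leaving out chromosome 10, chosen after seeing the data, changed the variable bins to 4157.

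The interactions in expression numbered 48 with DESeq2 (33 toward RAD and 15 toward ULB), 13 with no filter (10 and 3) and 34 with the covariate (21 and 13). Chosen after seeing the data, the fit without the libraries below 90% gave 13 (9 and 4) and that without WL ULB replicate 1 gave 21 (16 and 5), where ALX1 reversed to -0.60. The index interaction passed in 5985 bins after quantile normalization. The cause of these changes was not tested. The merged H3K27ac profiles allow no error, and the index has no depth per bin.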
